A study of Homo sapiens with 32 samples.

Results

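The transcript clusters described here are the features of a human exon array that carried no gene symbol in the platform annotation. A transcript cluster is a set of probes that the array design summarises as 1 value. Members were chosen by that annotation alone, without any measured value, and 1 cluster whose ID fell among the IDs of the Y chromosome was left out. This left 5017 clusters of 21788 on the array. They were compared with the 14395 clusters that had exactly 1 symbol, again without the Y chromosome.

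The arrays came from 7 B-lymphoblastoid cell lines, which are B cells kept growing in culture by Epstein-Barr virus. Every culture had received 200 µM of the nucleoside 4-thiouridine (4sU) for 2 h, and no culture without 4sU was among the samples. For every culture, RNA that had taken up the label (nascent RNA) went on 1 set of arrays and unseparated total RNA on another, 16 arrays of each kind. There were 3 separately grown cultures for each of GM07029, GM10835 and GM12813, those of GM12813 with a technical duplicate array, and 1 culture for each of GM07019, GM12812, GM12814 and GM12815. The series asked how mRNA stability differs between genes and between people, using the amount of nascent relative to total RNA.

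Newly made RNA begins as a precursor that still holds its introns, which are removed and degraded while or soon after the RNA is made. Mature mRNA, which makes up most of the messenger pool in total RNA, is kept for a time that differs between genes. Exon arrays also hold control probe sets placed in exons and introns of widely expressed genes. None of the tables used here says what any of the 5017 clusters reads, and no gene name, strand or sequence is given for them below. They are named by their cluster ID and by the listed clusters next to them in ID order.

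The median log2 value of an array was 6.74 to 6.95 for total RNA and 7.58 to 7.92 for nascent RNA, and no 2 arrays held identical values. Background was set at a log2 value of 6.39, the 95th percentile of 221 clusters of olfactory receptor genes, which belong to the nasal epithelium. The same percentile within total RNA alone was 5.96, and 10 of the 10 B cell markers on the array lay above it, against 3 of 9 markers of T and NK cells, 1 of 6 of monocytes and granulocytes and 5 of 7 of fibroblasts and epithelia. Summed over each list, B cell markers ranged from 101 to 107 log2 units between lines, and fibroblast and epithelial markers from 45.5 to 47.9. The part of other cell types in the results below was not tested. In such bulk RNA, fewer cells that make an RNA and less of it per cell cannot be told apart, and the number of arrays limits the precision of every value.

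The cluster IDs followed the order of the chromosomes. Of 14235 listed clusters whose neighbours on either side lay on 1 chromosome, 14203 (99.8%) lay on it too, and 4976 of the 5017 clusters without a symbol could be placed on a chromosome by their neighbours. Within that order most of them were not scattered. A total of 3706 (73.9%) stood in 67 unbroken runs of at least 15 clusters, with a median length of 44. This structure, and the limit of 15, were found after the data had been seen. In the runs the median step from one ID to the next was 2, against 57 among clusters with 1 symbol, and 96.3% of the steps were of 4 or less, against 0.625%. The other 1280 members stood alone or in shorter groups, and 31 closed the ID range with a median step of 1805.

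Most runs began right behind a listed cluster. The preceding listed cluster was 16 IDs away or less in 57 of the 67 runs, and the following one in 39. The preceding cluster was above background in 63 runs, with a median log2 value of 9.03 in total RNA, and the following one in 53, with a median of 7.11. Among the preceding clusters were those of RHOA, a small GTPase of the cytoskeleton, of CANX, a chaperone of the endoplasmic reticulum, of PSMB2, a proteasome subunit, of DDX5, an RNA helicase, and of HNRNPM, an RNA-binding protein of the spliceosome. The longest run, of 228 clusters, followed the cluster listed for GDI2 and TASOR2 on chromosome 10. By chromosome, chromosomes 17, 1 and 14 held the most members in runs (397, 383 and 354), and chromosomes 13, 20 and 21 had no run. The scattered members were spread more evenly, at 6.22 (chromosome 21) to 11.2 (chromosome 18) per 100 clusters with 1 symbol.

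Members were spread over a wider range of signal than clusters with 1 symbol. In total RNA the standard deviation across clusters was 2.88 log2 units for members in runs, 2.54 for the other members and 1.94 for clusters with 1 symbol. Their medians in total RNA were 6.45, 6.40 and 6.97, and in nascent RNA 8.01, 7.35 and 7.80, so clusters in runs had a lower median than clusters with 1 symbol in total RNA and a higher one in nascent RNA. Within single runs, the dimmest and the brightest cluster were a median of 9.71 log2 units apart in total RNA.

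Over all arrays, 3022 members (60.2%) lay above background, of which 2256 were in runs, 737 were other members and 29 stood at the end of the ID range. The share among clusters with 1 symbol was 67.1%. With a background set in each fraction from the same olfactory receptor clusters (5.96 in total RNA, as above, and 6.83 in nascent RNA), 412 clusters in runs (11.1%) were above it in nascent RNA only, and 20 (0.540%) in total RNA only. Among the other members these were 49 (3.83%) and 39 (3.05%), and among clusters with 1 symbol 253 (1.76%) and 495 (3.44%). At the 99th percentile of olfactory receptors, an alternative chosen after the data had been seen, clusters above background in nascent RNA only were 570 (15.4%) in runs and 914 (6.35%) among those with 1 symbol. Line by line, the share above background in nascent RNA only ranged from 8.63% to 13.2% in runs and from 1.65% to 3.57% for clusters with 1 symbol, so these ranges did not overlap. Such clusters occurred in 60 of the 67 runs. The largest counts, not adjusted for run length, were 35 of 228 clusters behind GDI2 and TASOR2 and 29 of 111 behind HNRNPM. The run behind SART3, a factor that helps reassemble spliceosomal particles, had 27 of 118.

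The nascent/total ratio is the difference of a culture's log2 values, nascent minus total, after centring on the median of the 14197 clusters above background. At a value of 1, a cluster had 2-fold more nascent relative to total RNA than the culture's median cluster. Each cluster was tested over the 7 lines against 0 with limma, with Benjamini-Hochberg adjustment over all 14197 clusters, and one with an adjusted p under 0.05 is called higher or lower. Of all clusters tested 31.7% were called higher and 31.7% lower. Among members 1222 (40.4%) were higher and 871 (28.8%) lower, but the runs and the scattered members lay on opposite sides of that. In runs 1028 of 2256 clusters (45.6%) were higher and 527 (23.4%) lower, and their median ratio was 0.25. Among the other members 194 of 737 (26.3%) were higher and 318 (43.1%) lower, with a median of -0.12. Clusters with 1 symbol gave 2857 higher (29.6%) and 3144 lower (32.6%) of 9654, with a median of -0.03. Zero here is set by the centring: without it, medians were 1.02 in runs, 0.65 for the other members and 0.75 for clusters with 1 symbol, so that signs change while the distances between groups stay the same.

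High ratios made up a larger share of the clusters in runs. Of the clusters in runs, 484 (21.5%) were higher by at least 2-fold, against 682 (7.06%) of those with 1 symbol and 9.17% of all tested. At least 4-fold higher were 114 (5.05%) in runs and 70 (0.725%) with 1 symbol, with 1.37% of all tested. Lower by at least 2-fold were 100 (4.43%) in runs, 119 (16.1%) of the other members and 525 (5.44%) with 1 symbol, with 5.92% of all tested. The filter on signal takes in nascent as well as total RNA, so a cluster dim in total RNA could pass it through nascent RNA, and the ratio of such a cluster rests on a total value near background. With both fractions required to be above 6.39, which also takes out clusters because their total RNA is low, 12603 clusters were tested, of which 31.7% were called higher. In that set 756 of 1872 clusters in runs (40.4%) were higher and 485 (25.9%) lower, with a median of 0.13, and 152 of 642 other members (23.7%) were higher and 292 (45.5%) lower, with a median of -0.18. At least 2-fold higher were 294 in runs (15.7%), against 623 with 1 symbol (7.18%) and 8.17% of all in the set. At least 4-fold higher were 52 in runs (2.78%), under 0.5 times the number without that requirement, against 54 with 1 symbol (0.622%) and 0.889% of all in the set. The distance between the medians of all members and of clusters with 1 symbol was 0.14 with the main filter, 0.05 with both fractions above background, 0.10 at the 99th percentile of olfactory receptors and 0.24 with no filter. With no filter 2157 of all 5017 members (43.0%) were higher, against 30.8% of all 21788 clusters.

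In each of the 7 lines the median of the clusters in runs was above that of clusters with 1 symbol. It ranged from 0.07 in GM12812 to 0.46 in GM12815, while the median of clusters with 1 symbol ranged from -0.04 to 0.00. The other members were below both groups in every line, from -0.22 in GM10835 to -0.08 in GM12815. Ratios of single clusters also varied more between lines in runs, with a median standard deviation over the 7 lines of 0.41, against 0.28 for the other members and 0.24 for clusters with 1 symbol.

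**Figure D1:**
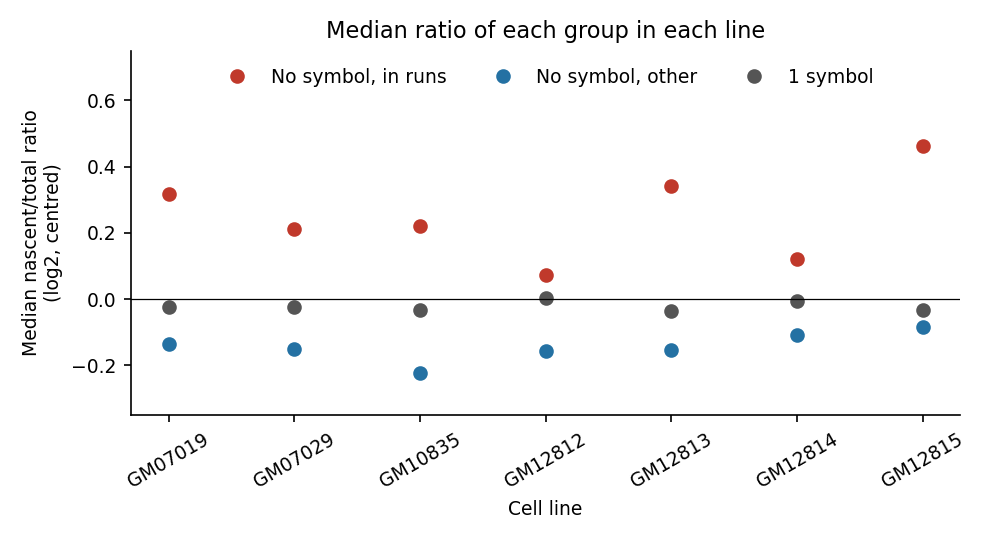
Median nascent/total ratio (log2, centred; vertical axis) of the tested clusters of each group in each of the 7 cell lines (horizontal axis); points are medians over clusters, with 1 culture or the mean of 3 behind each line. Clusters in runs lie between 0.07 and 0.46 and above the clusters with 1 symbol in all 7 lines, and the other members between -0.22 and -0.08, below both.

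The distance from the clusters with 1 symbol depended on brightness. At a mean log2 intensity of 6 to 7, the median ratio was 0.83 over 478 clusters in runs and -0.00 over 2364 with 1 symbol. Only 284 and 1488 of these passed the filter on signal. Their medians in total RNA were 5.67 in runs and 6.14 with 1 symbol, against a total RNA background of 5.96. The size of the gap in this bin is therefore uncertain, since many ratios in runs rest on total values below background. From 8 to 9 the median ratio was 0.46 against 0.02, with medians of 7.79 and 8.03 in total RNA. From 10 to 11 it was -0.03 against -0.32, and from 12 to 13 it was -0.55 over 169 clusters in runs against -0.79 over 40 with 1 symbol. In runs 71.1% of the tested clusters from 6 to 7 were called higher and 2.96% of those from 12 to 13. With 1 symbol these shares were 22.2% and 2.5%, so at the bright end the 2 groups were alike. The other members had medians of 0.08, 0.02 and -0.05 in the bins from 6 to 9 and lay below clusters with 1 symbol from 10 to 13, with a median of -0.57 from 10 to 11 and -0.94 from 12 to 13. With the trend of the ratio on signal removed in each culture, the medians were 0.32 in runs, -0.12 for the other members and -0.06 for clusters with 1 symbol, and 272 clusters in runs were called lower in place of 527.

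**Figure D2:**
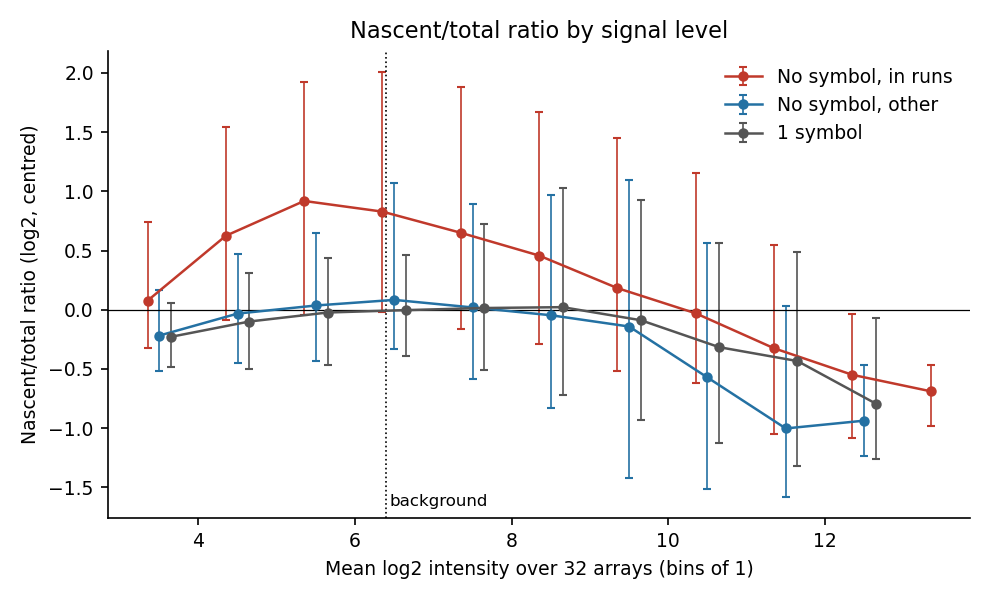
Median nascent/total ratio (log2, centred; vertical axis) in bins of 1 of the mean log2 intensity over 32 arrays (horizontal axis), for bins of at least 20 clusters; bars run from the 10th to the 90th percentile of clusters and the dotted line is background. From 6 to 7 the median of clusters in runs is 0.83 and that of clusters with 1 symbol -0.00, and above 10 all 3 groups have medians below 0. From 6 to 7 the clusters in runs have a median of 5.67 in total RNA, below the total RNA background of 5.96.

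The same slope was present inside single runs. In each run the tested clusters were ranked by mean intensity over both fractions, and the brightest 25% was set against the dimmer 50%, a division chosen after the data had been seen. The dimmer 50% had the higher median ratio in 61 of 67 runs, and in 51 of them in all 7 lines. Over runs, the median ratio was -0.36 for the brightest 25% and 0.60 for the dimmer 50%, and the median difference was 0.89, with a range from -0.58 to 2.72. With the brighter 50% in place of the brightest 25% it was 0.69. With both fractions above background it was 0.65, and the dimmer 50% had the higher median in 60 of the 65 runs with at least 6 such clusters. The median difference in single lines ranged from 0.71 in GM12812 to 1.12 in GM12815. Clusters with 1 symbol above background were ranked as 1 pool. Their brightest 25% (2413) had a median of -0.22 and their dimmer 50% (4827) one of 0.01, a difference of 0.23. This is not a like comparison, since they span less signal, with a standard deviation in total RNA of 1.94 against 2.88 in runs. In bins of mean intensity from 6 to 7 and from 11 to 12, medians were -0.00 and -0.43 with 1 symbol, and 0.83 and -0.33 in runs. The 0.83 is uncertain, since the median in total RNA of those clusters was 5.67, below the total RNA background of 5.96.

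The brightest clusters of a run had ratios close in rank to that of the listed cluster before the run, but not to that of the one behind it. Over the 49 runs with both neighbours above background, Spearman's correlation of the brightest clusters' median ratio was 0.71 with the preceding and -0.13 with the following cluster. For the dimmer 50% it was 0.50 and -0.06. These are descriptions across runs, all measured on the same arrays. Neighbouring clusters inside runs also shared their ratios: over 1576 adjacent pairs with both members above background the correlation was 0.68, and it was 0.30 over 1126 pairs that stood 10 places apart. In total RNA it was 0.43 over 3639 adjacent pairs and 0.19 at 10 places, so clusters of a run are not independent of each other.

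**Figure D3:**
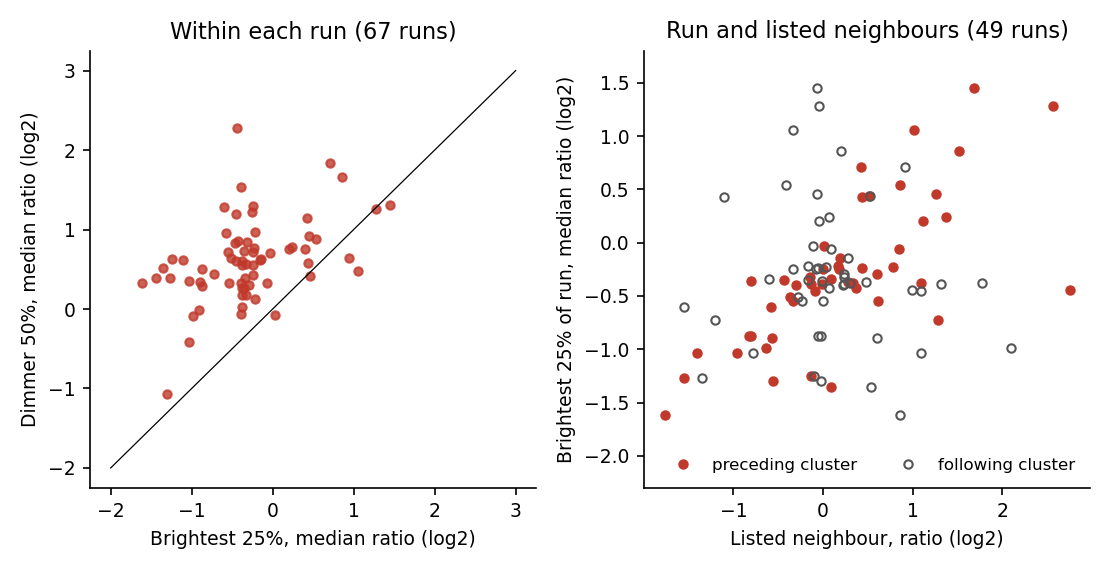
Left, the median ratio (log2, centred) of the dimmer 50% against that of the brightest 25% of tested clusters in each of 67 runs, with the line of equality: 61 runs lie above it. Right, the median ratio of the brightest 25% against the ratio of the listed neighbour for 49 runs, filled points for the preceding and open points for the following cluster: filled points rise from lower left to upper right, and open points do not.

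Individual runs were of several kinds. For comparison, 31.7% of all clusters tested were called higher and 31.7% lower, and 45.6% and 23.4% of those in runs. Behind SART3 on chromosome 12, of the 64 tested clusters 50 were called higher and 3 lower. Their median ratio was 1.58, with 1.28 for the brightest 25% and 1.26 for the dimmer 50%, and SART3 itself had a ratio of 2.56. Behind HNRNPM on chromosome 19, 62 of 73 were higher and 5 lower, with 0.86 for the brightest 25%, 1.66 for the dimmer 50% and 1.52 for HNRNPM. Behind IK, a spliceosome component, on chromosome 5, the brightest 25% was at -0.44 and the dimmer 50% at 2.28, the widest gap of all runs, although IK itself was at 2.75.

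Other runs were low throughout or split. The shares to set beside their counts are again 31.7% higher and 31.7% lower of all tested, and 45.6% and 23.4% in runs. Behind EIF4G2, a translation initiation factor listed together with SNORD97, on chromosome 11, 29 of 38 tested clusters were lower and 3 higher, with -1.03 for the brightest 25% and -0.96 for the listed cluster. That run was also bright, with a median of 11.5 in total RNA and no cluster seen in nascent RNA only. Behind CAPNS1, the small subunit of calpain proteases, on chromosome 19, the brightest 25% was at -1.61 and the dimmer 50% at 0.33, and CAPNS1 at -1.77. Behind ARF1, a GTPase of Golgi transport, on chromosome 1, 25 of 44 were higher and 11 lower, with -0.61 for the brightest 25%, 1.29 for the dimmer 50% and -0.58 for ARF1. In the run of 228 clusters behind GDI2 and TASOR2, 73 of 136 were higher and 32 lower, with -0.40 and 1.54.

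**Figure D4:**
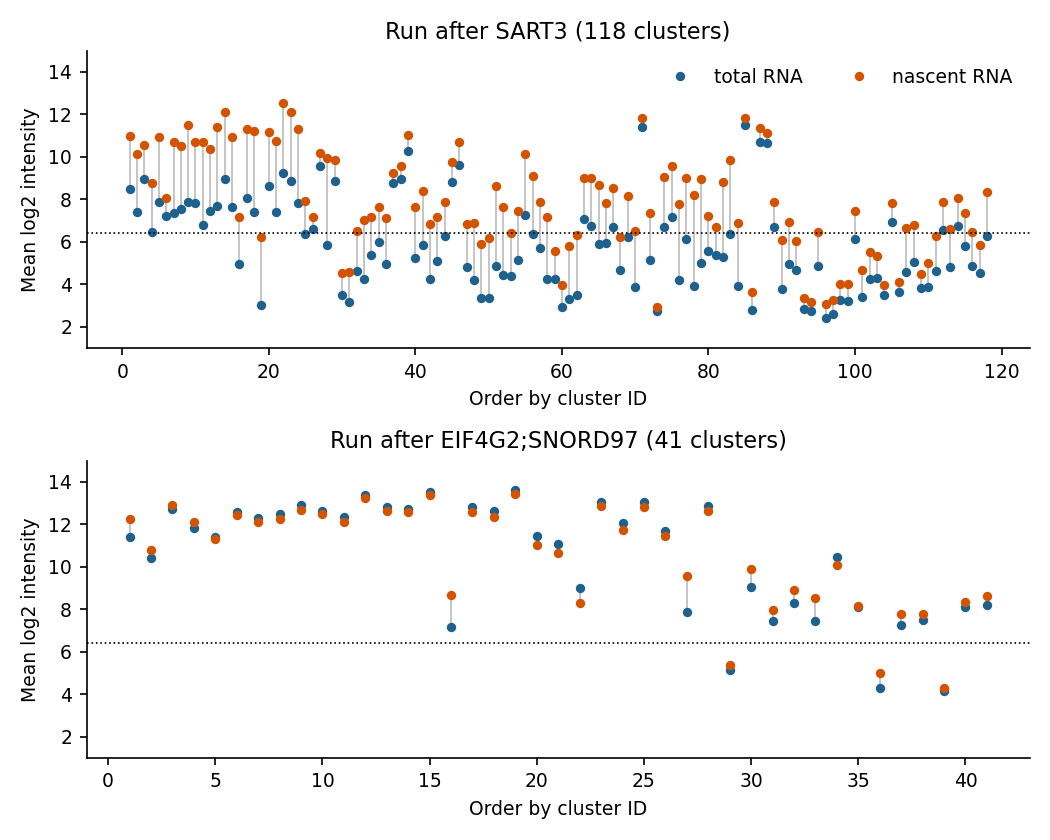
Mean log2 intensity (vertical axis) of each cluster in ID order (horizontal axis) in total RNA (blue) and nascent RNA (orange), 16 arrays each, for the run of 118 clusters behind SART3 and that of 41 behind EIF4G2 and SNORD97; grey lines join the values of a cluster and the dotted line is background. Nascent values lie far above total values in much of the first run, and close to them in most of the second.

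The 8 highest ratios among members had means from 2.80 to 3.52, and 7 of the 8 stood in runs. Their means in total RNA were 6.46 to 9.15 and in nascent RNA at least 10.4. Cluster 3476741, between SCARB1 and DHX37 on chromosome 12 and in no run, had total values with a lowest of 7.84, a median of 8.15 and a highest of 9.89 over the 7 lines, and nascent values of 12.57, 13.08 and 13.14. The 2 ranges did not overlap, and its ratio was lowest in GM07029 (2.35) and highest in GM07019 (4.43), with a mean of 3.52 ± 0.87 (SD, n = 7; limma adjusted p = 2.52e-06).

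The run behind SART3 held 4 of the 8: 3470265, 3470281, 3470272 and 3470263, all within 28 IDs of the listed cluster. Cluster 3470265 had total values of 5.26, 5.97 and 8.08 (lowest, median and highest line) and nascent values of 9.98, 10.60 and 10.97. Its total RNA lay below the 5.96 of total RNA in GM12812, GM12814 and GM12815, so that its measured ratio there is uncertain. Only with total values raised to 5.96 is the ratio there a lower bound. As measured, its mean ratio was 3.41 ± 0.73 (SD, n = 7; limma adjusted p = 1.43e-06), and it was 3.21 with total values raised to 5.96. The means of the other three were 3.24, 3.19 and 3.06. In 3470281 and 3470272 the lowest ratio was that of GM07029 and the highest that of GM12815, and in 3470263 they were those of GM10835 and GM12812. The run behind IK held 2 more, 2831964 with a mean of 3.22 ± 0.63 and 2831951 with 2.80 ± 0.67 (SD, n = 7 each). The total RNA of 2831964 was below 5.96 in GM12812 and GM12815, and its mean was 3.04 with total values raised to that level. The eighth, 3630225, stood 3 IDs before the cluster listed for LCTL and ZWILCH on chromosome 15. It had a mean of 3.03 ± 0.60 (SD, n = 7), with total values between 5.28 and 6.94 and nascent values between 10.11 and 10.85; GM12815 was below 5.96, and the mean was 2.94 with total values raised to it.

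The 8 lowest ratios had means from -2.76 to -2.13, and 2 of them stood in runs. Cluster 2686789, in the run behind ZBTB11 and its antisense RNA on chromosome 3, had total values of 7.83, 9.32 and 9.61 (lowest, median and highest line) and nascent values of 6.72, 6.94 and 7.47. Its ratio ranged from -3.59 in GM12813 to -1.59 in GM10835, with a mean of -2.76 ± 0.74 (SD, n = 7; limma adjusted p = 2.33e-06). Nascent RNA was below 6.83 in GM07029 and GM12813, and raising it to that level gave -2.74. Cluster 3831183, in the run behind CAPNS1, had total values of 11.02, 11.43 and 11.78 and nascent values of 8.95, 10.25 and 10.61. Its mean of -2.17 ± 0.28 (SD, n = 7) had the smallest spread of the 8.

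The scattered members among the lowest included 3459716 between PPM1H and AVPR1A on chromosome 12 (mean -2.68) and 3309940 between MCMBP and FGFR2 on chromosome 10 (-2.51). Cluster 3867904 stood between PIH1D1 and NOSIP on chromosome 19 (-2.13). Cluster 3255506 (-2.66) stood 104 IDs behind the cluster of CCSER2 and TNPO1 and 466 before LDB3 on chromosome 10. Cluster 3361559 (-2.18) stood 28 IDs behind the cluster of OR10A3 and NLRP10 and 62 before RIC3 on chromosome 11. GM10835 had the ratio closest to 0 for 3459716 (-1.32), 3361559 (-0.81) and 3867904 (-1.18), and the ratio farthest from 0 for 3309940 (-3.51). For 3361559 the nascent values of 4 lines were below the 6.83 of nascent RNA, so that its measured ratio there is uncertain. With nascent values raised to that level, which makes the ratio there an upper bound, its mean was -1.83. The same was so for 1 line of 3255506, with a mean of -2.53 after raising. The eighth, 4100336, stood at the end of the ID range (mean -2.13). Of the 31 clusters there, 29 were above background. In the limma test 26 (89.7%) were lower and 0 higher, against 31.7% and 31.7% of all tested. The ratios of these end clusters had a median of -0.99 and a range from -2.13 to -0.54. Their median in total RNA was 10.5, with a range from 3.40 to 13.7.

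Scattered members that stood close behind a listed cluster had the lowest median ratio of that group, and also the highest median in total RNA. Among all clusters tested, 31.7% were called lower and 31.7% higher. Of the 143 within 16 IDs, 115 were above background, with a median of 10.8 in total RNA, a median ratio of -0.83, 74 lower and 14 higher. Of the 699 at 17 to 100 IDs, 396 were above background, with medians of 7.99 and -0.03, 148 lower and 118 higher. Of the 438 farther away, 226 were above background, with medians of 8.08 and -0.11, 96 lower and 62 higher. Where both listed neighbours were above background, Spearman's correlation with the preceding cluster's ratio was 0.54 over 98 members within 16 IDs and 0.07 over 253 members at 17 to 100 IDs, and that with the following cluster was -0.02 and -0.07. The groups of steps were set after the data had been seen. Scattered members of any position also had low ratios at high signal, with a median of -0.57 from 10 to 11. The part of brightness in the difference between the step groups was not tested.

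Between GM07029, GM10835 and GM12813, with 3 cultures each, members were compared by limma's F test for the ratio, total RNA and nascent RNA, with adjusted p over all 14197 clusters. The ratio differed in 911 members (30.1%), against 25.3% of all tested and 2303 (23.9%) of clusters with 1 symbol. Total RNA differed in 1790 members (59.2%, against 56.2% of all tested), and nascent RNA in 1665 (55.1%, against 56.6%). Shares in runs and among the other members were 29.7% and 31.1% for the ratio, 58.9% and 59.8% for total RNA, and 53.4% and 61.7% for nascent RNA. The count for the ratio depended on single cultures. It was 592 without GM10835 replicate 2, 546 without GM10835 replicate 3, 563 without GM12813 replicate 2 and 586 without GM12813 replicate 3, and 528 when only the first array of each GM12813 culture was used. Shares of all clusters under these settings are not given here, so whether members lost more calls than other clusters was not tested.

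Large differences between lines made up a larger share of the members than of all clusters in total RNA and in the ratio, and a smaller one in nascent RNA. A range of line means of at least 1 log2 unit, with an adjusted p under 0.05, was found for total RNA in 613 members (20.3%), against 13.7% of all tested and 12.0% of clusters with 1 symbol. For the ratio it was found in 321 (10.6%), against 4.66% of all tested and 2.98% with 1 symbol. For nascent RNA it was found in 145 (4.80%), against 6.12% of all tested and 6.66% with 1 symbol. The spread between cultures of a line was also wider in members: the median standard deviation was 0.21 in total RNA, 0.14 in nascent RNA and 0.23 for the ratio, against 0.15, 0.11 and 0.17 with 1 symbol. Its part in the ranges was not tested. Of the 911 members whose ratio differed, 526 were highest in GM12813, 282 in GM10835 and 103 in GM07029, and among clusters with 1 symbol 951, 1010 and 342.

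The 8 widest ranges of the ratio among members were from 2.46 to 3.54. Of these 3 lines, GM12813 had the highest mean ratio and the lowest mean in total RNA in all 8 clusters, and GM10835 had the lowest ratio in 7. Over all 7 lines, each cluster had its highest ratio in GM12812, GM12814 or GM12815, while the same 7 were still lowest in GM10835. For 3319314 the ratios were 1.35 in GM07019, 1.60 in GM12812, 1.18 in GM12814 and 1.90 in GM12815, beside 1.74 in GM12813. Their ranges between lines were 2.50 to 3.83 in total RNA and 0.39 to 0.92 in nascent RNA. Cluster 3319314, in the run between PPFIBP2 and TUB on chromosome 11, had total values of 8.73, 8.84 and 9.16 in GM07029, of 11.16, 11.21 and 11.03 in GM10835 and of 7.61, 7.53 and 6.78 in GM12813. The lines did not overlap in total RNA. In nascent RNA its means were 9.52 ± 0.29, 10.17 ± 0.02 and 9.85 ± 0.08 (SD, n = 3 cultures each). Its ratios of -0.15 ± 0.47, -1.80 ± 0.13 and 1.74 ± 0.41 differed in the limma F test (adjusted p = 7.77e-05, n = 3 per line).

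Cluster 3394071, 14 IDs behind the ribosomal protein pseudogene RPL23AP64 on chromosome 11, had total values of 10.59, 10.60 and 11.04 in GM07029, of 11.52, 11.63 and 11.54 in GM10835 and of 9.03, 9.17 and 8.59 in GM12813, again without overlap. Its nascent means lay closer together, at 9.82, 10.20 and 10.11. Its ratios were -1.69 ± 0.27, -2.18 ± 0.22 and 0.38 ± 0.19 (SD, n = 3 cultures each; limma F adjusted p = 4.08e-05). Cluster 3831195, in the run behind CAPNS1, had ratios of -0.83 ± 0.24, -1.79 ± 0.07 and 0.66 ± 0.25 (SD, n = 3 each; limma F adjusted p = 4.08e-05). Cluster 3809673, 2 IDs behind NARS1, an asparaginyl-tRNA synthetase, on chromosome 18, had ratios of 1.13 ± 0.43, -0.00 ± 0.27 and 2.48 ± 0.21 (SD, n = 3 each).

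For 3225198, 2 IDs behind RPL35, a ribosomal protein, on chromosome 9, total RNA means were 9.79, 11.44 and 8.17 in GM07029, GM10835 and GM12813, and nascent means were 7.96, 8.78 and 7.95. For 3377465, 2 IDs behind FAU, a ribosomal protein precursor listed together with CACNB3, on chromosome 11, total RNA means were 10.26, 12.54 and 9.52, and nascent means 10.95, 11.88 and 11.31. Of these 3 lines, both clusters were brightest in GM10835 in both fractions. The remaining pair was 3255514, 112 IDs behind the cluster of CCSER2 and TNPO1 on chromosome 10, and 2318755 behind PARK7 on chromosome 1. Both differed in total RNA (limma F adjusted p = 0.00345 and 0.000109) and did not pass the test in nascent RNA (adjusted p = 0.27 and 0.154). Their ranges of the ratio also rest on values below background, in nascent RNA for GM07029 and GM10835 in 3255514 and in total RNA for GM12813 in 2318755. With values raised to background the ranges were 2.63 and 2.27 in place of 2.90 and 2.59.

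**Figure D5:**
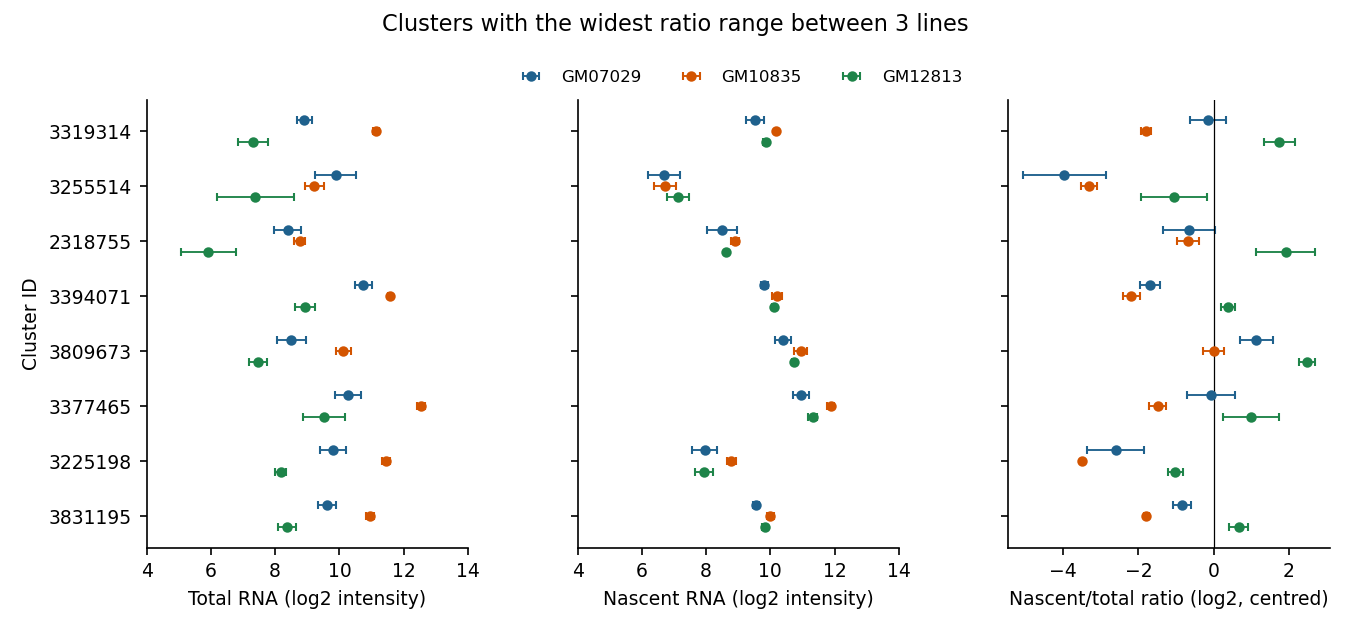
Total RNA, nascent RNA (log2 intensity) and nascent/total ratio (log2, centred) on the horizontal axes for the 8 members (cluster IDs on the vertical axis) with the widest ratio range between 3 lines; points are means and bars SD of 3 cultures. Of these 3 lines, GM12813 has the highest ratio and the lowest total RNA in all 8. The lines lie 2.50 to 3.83 apart in total RNA but 0.39 to 0.92 apart in nascent RNA. For 2318755 the total RNA of GM12813, and for 3255514 the nascent RNA of GM07029 and GM10835, are below background.

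The 6 widest ranges in total RNA were from 3.07 to 3.83. They included 3319314 and 3225198, as well as 3377469 behind FAU (9.05 ± 0.43, 11.69 ± 0.09 and 8.44 ± 0.43) and 2333676 behind ATP6V0B on chromosome 1 (8.86 ± 0.19, 11.24 ± 0.19 and 8.17 ± 0.12; SD, n = 3 cultures each). Of the 3 lines with replicate cultures, these 4 were highest in GM10835 and lowest in GM12813. The other 2 were highest in GM07029 and lowest in GM10835. Of these, 2536380 in the run behind SEPTIN2, a cytoskeletal GTPase, on chromosome 2 had total RNA means of 8.07 ± 0.11, 4.91 ± 1.05 and 6.53 ± 0.87 (SD, n = 3 cultures each). GM10835 was below background, which makes the measured range of 3.17 uncertain; with total values raised to 5.96 it was 2.11. Its ratio did not pass the test (limma F adjusted p = 0.0629, n = 3 per line).

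Cluster 2464005, between CEP170 and COX20 on chromosome 1, had the second widest range in total RNA and the widest in nascent RNA. Its total values were 8.54, 7.89 and 8.18 in GM07029, 8.20, 8.32 and 7.85 in GM12813, and 4.55, 4.68 and 4.91 in GM10835. Its nascent means were 7.78 ± 0.34, 7.90 ± 0.10 and 5.49 ± 0.23 in the same order of lines (SD, n = 3 cultures each). GM10835 lay below background in both fractions and below every culture of the others, so the measured ranges of 3.49 and 2.41 are uncertain, and with values raised to background they were 2.24 and 1.08. The F test gave adjusted p = 2.37e-07 for total and 8.43e-07 for nascent RNA (limma, n = 3 per line).

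All 6 of the widest ranges in nascent RNA, from 1.82 to 2.41, had the lowest mean of these 3 lines in GM10835. Cluster 2980516, between IPCEF1 and the cluster of TFB1M and TIAM2 on chromosome 6, had nascent means of 9.02 ± 0.30, 6.69 ± 0.14 and 8.46 ± 0.07 and total means of 7.99 ± 0.29, 5.75 ± 0.08 and 7.15 ± 0.15 in GM07029, GM10835 and GM12813 (SD, n = 3 cultures each). The ranges were 2.33 and 2.23 in nascent and total RNA, with GM10835 below background in both, and 2.20 and 2.03 with values raised to background. Its ratio did not pass the test (limma F adjusted p = 0.16, n = 3 per line). Cluster 2903219, 30 IDs behind HLA-DRA, an antigen-presenting protein of B cells, on chromosome 6, had nascent values of 10.91, 11.17 and 11.19 in GM07029, against 8.98, 9.02 and 9.07 in GM10835 and 9.10, 9.18 and 9.14 in GM12813. GM07029 stood above the other two without overlap (limma F adjusted p = 1.2e-08, n = 3 per line), and in total RNA the means were 11.78, 9.51 and 9.26. The other three stood in runs: 3556180 and 3556178 before SUPT16H, a histone chaperone subunit, on chromosome 14, and 3275157 behind GDI2 and TASOR2, whose total RNA did not pass the test (limma F adjusted p = 0.0987, n = 3 per line). The nascent RNA of 3556178 was below background in GM10835, and its range of 1.82 was 0.94 with values raised to background. The total RNA of 3275157 was below background in 6 of the 7 lines, and its nascent range was 1.72 with values raised to background.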

How the data were processed

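The values were log2 intensities per transcript cluster as deposited by the authors, 1 column per array, with no value missing. Per the submitters' processing notes, Affymetrix Power Tools were used with hg18; the sources used here do not give the summary or normalization method. Symbols came from the platform's annotation, which lists none of the members; 14377 of the clusters with 1 symbol were matched to RefSeq by gene ID. The members, lists and tests were chosen with earlier results of these data known. Runs, signal groups within runs and step groups were set after the ID order had been seen.

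Technical duplicates were averaged. Clusters whose mean over 32 arrays exceeded background (log2 6.39) were tested with limma 3.58.1 in R 4.3.3 (lmFit, eBayes with a trend, two-sided): 1 mean per line for the 7-line test, and 9 cultures for the F tests, threshold 0.05 after Benjamini-Hochberg adjustment over 14197 clusters. The tests were tried on simulated data. In the 7-line test, p-values measure the spread between lines. In the F tests the replicates are separate cultures, and p-values measure the spread between the cultures of a line. Named clusters were the 8 highest and 8 lowest ratios (same sign in 7 lines, mean of each fraction above 6.39), and between lines the 8 widest ratio ranges and 6 each in total and nascent RNA, without X and Y. Alternatives covered filter, background, centring, normalization, signal trend, duplicates, eBayes without a trend, blocks and left-out lines or cultures; the run division over clusters with both fractions above background was added after the data had been seen.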

Additional observations from a re-analysis of the deposited data

Results flagged for a closer look

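Of 20 sets of 7 lines examined, chance alone would set 1 line apart in about 1 in 20. In 4 of them, the gap between 1 line and its nearest neighbour took up an unusually large share of the whole range. For cluster 3459716 the ratio of GM10835 was -1.32 and the gap 0.642 of the range; for 3309940 GM10835 was at -3.51 and the gap 0.631. For 3831183 GM12815 was at -2.72 and the gap 0.619, and for 4100336 GM12815 was at -0.81 and the gap 0.612.

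The ratio of 8 members differed between GM07029, GM10835 and GM12813 by limma's F test (n = 3 cultures per line, 8 widest ranges). The adjusted p was 7.77e-05 for cluster 3319314, 0.00589 for 3255514, 0.00164 for 2318755 and 4.08e-05 for 3394071. It was 0.000251 for 3809673, 0.00285 for 3377465, 0.0011 for 3225198 and 4.08e-05 for 3831195. In all 8, total RNA was lowest in GM12813.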

How the results depend on the processing

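No named cluster changed direction or its side of the threshold in the 608 comparisons run, although the sizes of those with values below background are uncertain. Clusters 3275157 and 3556178, with mean total RNA of 5.39 and 6.07, had no comparison in 2 settings. They were outside the set with both fractions above 6.39 and the set at the 99th percentile background. Of the main counts and medians, 142 alternative values were within 1.5 times the main count or within the spread between lines (1 SD) of the main median, and 17 were not. Without a filter, 3298 members were called over 7 lines, 2157 of them higher (1820 in runs), and 567 for the ratio between lines. Over 7 lines that was 43.0% of members higher and 22.7% lower, against 30.8% and 30.6% of all clusters. Without centring, 2418 were higher and 217 lower over 7 lines, and in runs 1923 and 100. With the trend on signal removed, 272 clusters in runs were lower, and the members' median stood 0.29 above that of clusters with 1 symbol in place of 0.14. That distance was 0.10 at the 99th percentile background, 0.05 with both fractions above background and 0.24 with no filter. With both fractions above background 1711 members were called, 908 higher (35.7%) and 803 lower (31.6%), against 31.7% and 31.9% of all in the set. The difference within runs was then 0.65 in place of 0.89. The first array of each GM12813 culture gave 528 members for the ratio between lines, and the brighter 50% in place of the brightest 25% of a run a difference of 0.69. Leaving out 1 line gave 1977 to 2112 members over 7 lines, 1156 to 1267 higher, 814 to 876 lower, 979 to 1077 higher and 483 to 545 lower in runs, and a median difference of 0.12 to 0.17. Leaving out 1 culture gave 546 to 1108 for the ratio between lines, 1597 to 1824 for total and 1478 to 1878 for nascent RNA. The cause of these shifts was not tested, beyond the change in clusters or cultures used. Where a count here has no share of all clusters beside it, whether members moved more than other clusters was not tested.

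With the replicate number as a block, the counts were 683 for the ratio, 1706 for total and 1558 for nascent RNA, against 911, 1790 and 1665. Same-numbered cultures correlated with mixed signs, as did differently numbered ones. The labels do not say whether equal numbers pair cultures of different lines, and so few correlations cannot decide it.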
